A study of Mus musculus with 44 samples.

Results

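The colony-stimulating factors and their receptors were followed across sorted spinal cord cells after injury and across TGFb1-treated cultures. The set was defined by symbol and held 7 mouse genes: the ligands Csf1 and Il34, the receptor Csf1r, the GM-CSF receptor chains Csf2ra, Csf2rb and Csf2rb2, and the G-CSF receptor Csf3r. Of the 7, 6 had a row in each table, among 8218 genes of the in vivo table and 12335 genes of the culture table. Il34 had a row in neither and was not analysed here.

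Colony-stimulating factors are secreted proteins that keep myeloid cells alive and set how many of them form. CSF1 (M-CSF) and IL34 both bind the receptor tyrosine kinase CSF1R, on which microglia and many tissue macrophages depend for survival. GM-CSF binds a specific alpha chain, encoded by Csf2ra, which signals through a shared beta chain that also serves the IL3 and IL5 receptors. Mice carry an extra beta chain gene, Csf2rb2, whose product acts with the IL3 receptor alpha chain. CSF3R binds G-CSF and is best known from neutrophils and their precursors.

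All mice and cultures were of strain C57BL/6. In vivo, a T12 laminectomy was followed by a 200 kdyn contusion of the cord. Sorted monocytes gave a pair of libraries at every one of 16 h, day 1, day 3 and day 7 (8 libraries). Sorted microglia gave 3 libraries at time 0 and a pair at 1 h and at each of those later times (13 libraries). The time 0 mice carry the same injury label as the rest, the sort gates and ages are not in the labels used here, and the labels give the time of microglia 1 h replicate 2 as 2 h in a tag and 1 h in the title used here. The cultures received TGFb1 at 100 ng/ml and were sampled at 0, 1, 3, 6, 16 and 20 h: bone marrow macrophages grown with M-CSF (11 libraries, 1 of them at 6 h) and microglia taken from primary glia of newborn mice (12 libraries). No untreated culture at a later time was analysed here, so TGFb1 and time in culture cannot be told apart. M-CSF is the CSF1 protein, so the macrophage cultures were grown in a ligand of the receptor measured here. No label says whether replicate libraries had separate animals or cultures as their source. The p-values therefore rest on library spread alone, which may be technical.

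Values are coverage signals per gene as scaled by the authors, in which exactly 1 stands where no read was counted. They were not divided by gene length, so levels were compared between libraries and not between genes, and the tables were scaled separately, so levels were not compared between them. The estimated depth was 132117 to 728109 reads in monocyte libraries, 30505 to 185670 in microglia libraries, 1171515 to 1879803 in cultured macrophages and 1746405 to 2249042 in cultured microglia. Every member had reads in all libraries but for Csf1 in 2 and Csf2rb2 in 4 of the 13 in vivo microglia libraries. Where libraries of different groups are said below not to overlap, the share of all genes that do so was not counted. Against their labels, the in vivo microglia libraries held 4.33 to 22.8% of their total in 12 neutrophil markers, against 0.136 to 0.566% in monocytes. The 10 microglia markers summed to 0.0262 to 0.357% in monocytes and 0.135 to 1.19% in microglia, where P2ry12 was listed at 1 in 3 of 13 libraries and Tmem119 in 1. Erythroid markers stood high in 3 microglia libraries (1 h replicate 1, 16 h replicate 2 and day 1 replicate 2, at 0.290 to 0.440%) and in 1 monocyte library at day 1 (0.158%). In culture, Cx3cr1 was at 23.6 to 376 in macrophages and 1804 to 2620.0 in microglia, while Ccr2 was at 32.9 to 84.4 in macrophages and at most 2.78 in microglia.

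Promoter sequences from RefSeq (GRCm38.p6, a build other than the mm9 of the files) matched 4 of the 7 genes by symbol: Csf1, Csf2ra, Csf2rb2 and Csf3r. The windows of Csf1 and Csf2rb2 are printed because those genes were called in injured microglia. Each run is the 250 bases before the annotated start, 5′ to 3′ in the direction of transcription. Capitals mark a match to the NF-kB motif GGGACTTTC in Csf1 and to the PU.1 motif GAGGAAG in Csf2rb2, each searched on both strands and each found here as its reverse complement.
Csf1 (chr3:107760470-107760719, minus strand): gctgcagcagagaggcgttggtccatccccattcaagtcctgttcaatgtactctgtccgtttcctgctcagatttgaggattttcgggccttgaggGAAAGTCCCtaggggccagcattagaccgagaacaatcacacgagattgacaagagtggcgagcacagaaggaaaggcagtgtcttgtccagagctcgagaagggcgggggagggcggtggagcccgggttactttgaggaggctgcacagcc
Csf2rb2 (chr15:78305722-78305971, minus strand): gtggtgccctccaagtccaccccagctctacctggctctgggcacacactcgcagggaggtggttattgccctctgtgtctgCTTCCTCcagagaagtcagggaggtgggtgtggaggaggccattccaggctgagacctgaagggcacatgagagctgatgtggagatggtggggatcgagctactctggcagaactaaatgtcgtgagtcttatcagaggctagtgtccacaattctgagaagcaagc
The NF-kB match lay 153 to 145 bases before the Csf1 start, and the letters occurred in 0.289% of 32851 promoter windows of the same length. The PU.1 match lay 168 to 162 bases before the Csf2rb2 start, and those letters occurred in 10.6% of the windows. PU.1 letters also stood in the windows of Csf2ra (2 matches, overlapping by 1 base) and Csf3r (1 match). The SMAD motif GTCTAGAC, in 0.167% of the windows, stood in none of the 4. A match says only that the letters are in the window.

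Csf1, the ligand of Csf1r, was scarcely counted in microglia at time 0 and was the member with the widest range over the in vivo groups. Its values were 1, 1 and 9.34 in the microglia libraries at time 0, 4.26 and 11.5 at 1 h, 16.0 and 112 at 16 h, 186 and 99.0 at day 1, 42.2 and 24.1 at day 3, and 7.52 and 16.6 at day 7. Both libraries at 16 h, day 1 and day 3 lay above all 3 at time 0, while those at 1 h and day 7 overlapped time 0. These values rest on 210 reads at day 1, 129 at 16 h and 30 at day 3, against 2 reads in the 3 libraries of time 0. The ratio of read rates was 68.4 at day 1 against time 0 (95% exact interval 18.7 to 569), 27.8 at 16 h (7.55 to 232) and 15.9 at day 3 (4.05 to 138), intervals that cover counting error only. Csf1 rose at day 1, by 5.30 on the log2(value + 1) scale (SE 0.92, limma adjusted p = 0.00243 over all genes). That scale makes the changes of low genes smaller. Short of the threshold of 0.05 were the changes of 3.66 at 16 h (SE 0.92, limma adjusted p = 0.0570), 3.25 at day 3 (adjusted p = 0.105) and 1.82 at day 7 (adjusted p = 0.335). In bulk RNA, fewer cells of a type and less RNA per cell cannot be told apart.

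The summed share of neutrophil markers was 7.83 and 10.6% in the day 1 libraries, against 22.2, 18.9 and 16.0% at time 0. When microglia were fitted without monocytes, the day 1 change of Csf1 kept its call. The neutrophil share did not overlap between day 1 and time 0, so as a covariate it is confounded with time in that contrast. With that covariate added, the day 1 change of Csf1 was 4.45 (SE 1.36) and lost its call (limma adjusted p = 0.477). Without the 3 microglia libraries richest in erythroid RNA it was 5.75 with an adjusted p of 0.0537, from 1 library at day 1. Col1a1, the single fibroblast marker measured, was highest in libraries of time 0 (up to 232 over the microglia), and Flt1, of endothelium, was listed at 1 in 12 of 13 microglia libraries. The 3 oligodendrocyte markers measured summed to 0.00182, 0.00651 and 0.00454% of the total in the time 0 libraries, 0.00295 and 0.0110% in those of 1 h, 0.0199 and 0.0221% in those of 16 h, 0.0152 and 0.00884% in those of day 1, 0.00343 and 0.0108% in those of day 3, and 0.00195 and 0.00398% in those of day 7. That share was thus higher at 16 h and day 1 than at time 0 in every library, as Csf1 was. At time 0, 2 or 3 of the 3 markers were listed at 1 in each library, against 0 or 1 at 16 h and 0 to 2 at day 1. The estimated depth was 30505 to 51974 reads at time 0 and 58549 to 151786 at 16 h and day 1. The part of depth in this order was not tested. The part of other cells in the change of Csf1 was not tested.

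In monocytes Csf1 stayed low: 3.22 and 0.236 at 16 h, 5.87 and 11.1 at day 1, 2.18 and 2.76 at day 3, and 2.55 and 0.750 at day 7. Every monocyte library at 16 h and day 1 lay below every microglia library of those times, and likewise at day 3 and day 7. Averaged over 16 h and day 1 (acute), Csf1 was lower in monocytes than in microglia (log2 -4.08, SE 0.71, limma adjusted p = 0.000536). Over day 3 and day 7 (late) the difference was -2.77 (SE 0.71, adjusted p = 0.0296). The acute call was kept in each of 8 fits that left out 1 library. The late call was kept in 2 of 8, with adjusted p up to 0.161 among the others. The change of that difference with time was 1.31 (SE 1.01, adjusted p = 0.952), which was not past the threshold.

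**Figure D1:**
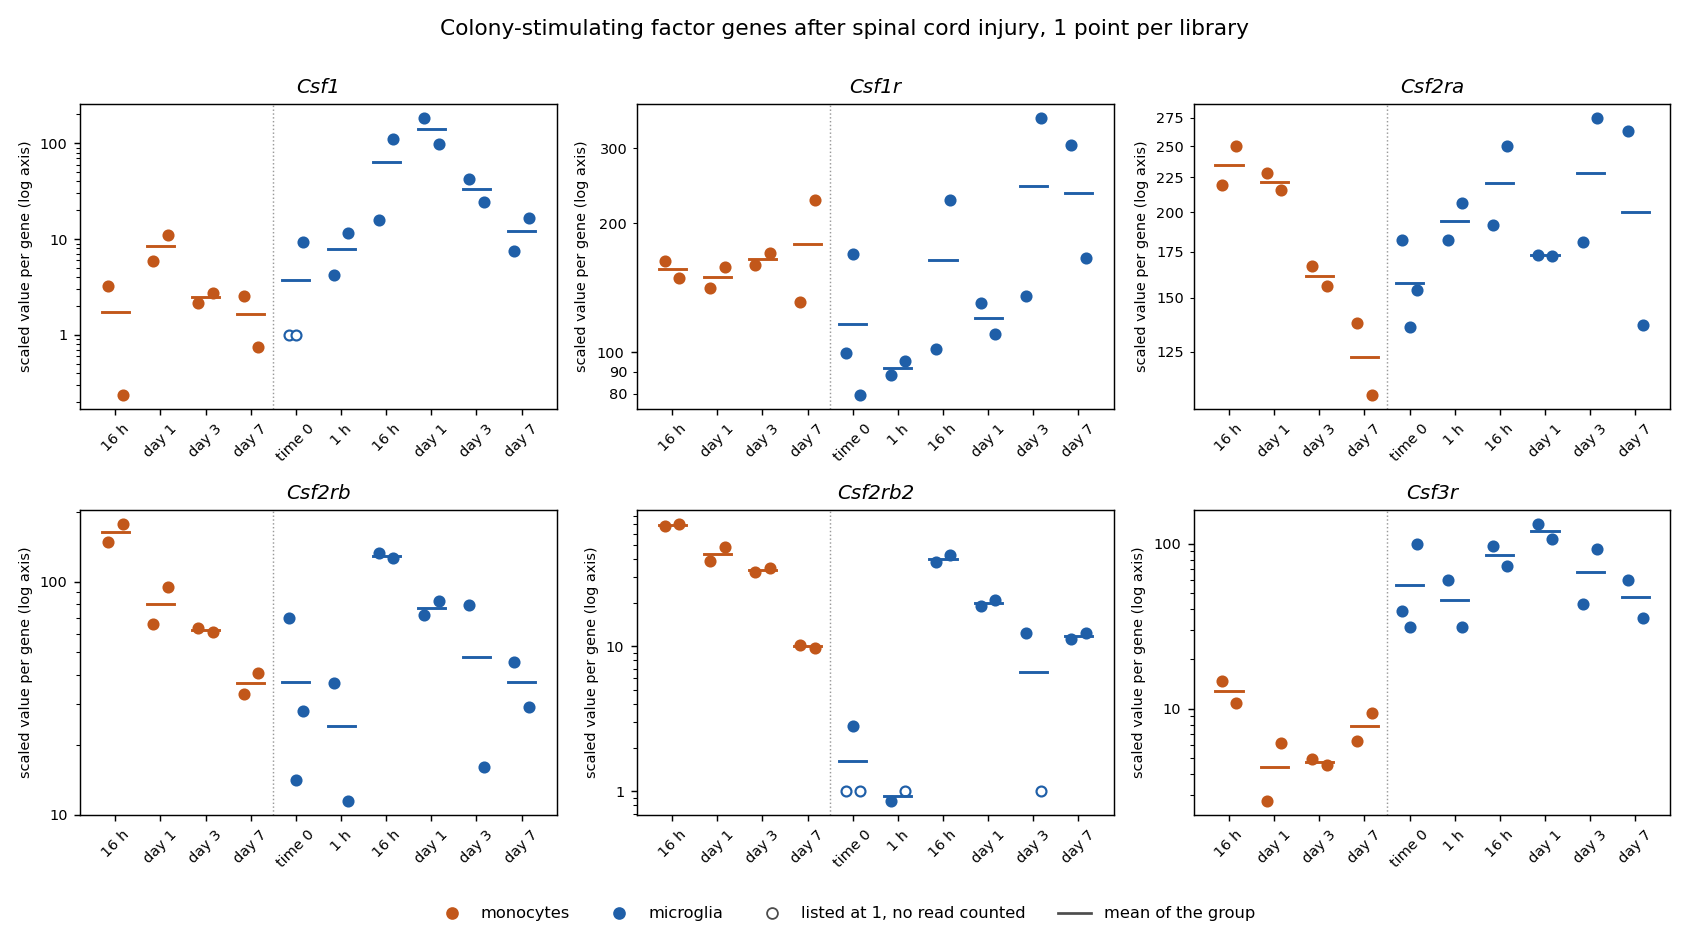
Scaled value per gene (log axis) of the 6 measured genes in each in vivo library, with 8 monocyte libraries in orange at the left of each panel and 13 microglia libraries in blue at the right, by time after injury. Points are libraries, bars are group means, and open points are values listed at 1. Csf1 in microglia reaches 99.0 and 186 at day 1, and Csf2rb2 in monocytes stands between 67.9 and 70.4 at 16 h and between 9.75 and 10.2 at day 7.

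Csf1r, the receptor of Csf1 and a defining gene of microglia and macrophages, held its level more closely. It was 131 to 227 over the 8 monocyte libraries (median 159) and 79.4 to 354 over the 13 microglia libraries (median 130.1). Microglia had 99.5, 169.9 and 79.4 at time 0, 88.7 and 95.5 at 1 h, 102 and 227 at 16 h, 130.1 and 111 at day 1, 135 and 354 at day 3, and 305 and 166 at day 7. The 4 late libraries included the 2 highest, and groups overlapped: in the order of the 10 group means, 8 of 9 neighbours overlapped in their libraries. The 10 microglia markers summed to 0.182, 0.435 and 0.158% of the total in the time 0 libraries, 0.135 and 0.189% in those of 1 h, 0.242 and 0.470% in those of 16 h, 0.325 and 0.269% in those of day 1, 0.424 and 1.19% in those of day 3, and 0.684 and 0.512% in those of day 7. In all 6 groups the library with the highest Csf1r also had the highest share, and the part of cell makeup in Csf1r was not tested. The changes against time 0 at day 3 (0.98, SE 0.41, limma adjusted p = 0.272) and day 7 (1.02, SE 0.41, adjusted p = 0.229) did not pass the threshold, nor did any other contrast of Csf1r in vivo. Monocytes against microglia differed by 0.18 in the acute phase (95% interval -0.47 to 0.82) and by -0.39 in the late phase (-1.04 to 0.25).

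Csf2ra, the ligand-specific chain of the GM-CSF receptor, was likewise present in every in vivo library, at 108 to 249.7 in monocytes and 136 to 275 in microglia. No contrast in vivo called it. In monocytes it was 219 and 249.7 at 16 h, 228 and 215 at day 1, 167 and 156 at day 3, and 138 and 108 at day 7, with all 4 late libraries below all 4 acute ones. The late against acute change was -0.70 (SE 0.24), with a limma adjusted p of 0.310 in the fit of all in vivo groups and 0.0202 in a fit of the monocytes alone. Across the alternatives, that last fit among them, 28 to 711 of 8218 genes were called, against 69 in the fit of all in vivo groups.

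Csf2rb2, the mouse beta chain gene of IL3 signalling, was counted at most once per library in microglia at time 0 and 1 h. Its values were 1, 2.83 and 1 at time 0, 0.853 and 1 at 1 h, 37.9 and 42.5 at 16 h, 18.9 and 20.7 at day 1, 12.3 and 1 at day 3, and 11.3 and 12.5 at day 7. Both libraries at 16 h, day 1 and day 7 lay above every library of time 0, and the day 3 libraries disagreed. The reads behind these values were 81 at 16 h and 26 at day 1, against 1 at time 0, a ratio of read rates of 34.9 at 16 h (95% exact interval 6.10 to 1397) and 16.9 at day 1 (2.78 to 694). Csf2rb2 rose at 16 h, by 4.05 (SE 0.76, limma adjusted p = 0.00709), and at day 1, by 3.07 (SE 0.76, adjusted p = 0.0459). The call at 16 h was lost on leaving out either 16 h library (adjusted p = 0.0539 and 0.231), with microglia fitted by themselves (0.132), with the neutrophil share as covariate (0.105) and without the 3 erythroid-rich libraries (0.295), with log2 changes of 3.97 to 4.94. The day 1 call was kept in 1 of 5 fits that left out a library.

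Csf2rb, the beta chain shared by the GM-CSF, IL3 and IL5 receptors, did not pass the threshold in injured microglia. Its microglia values were 69.7, 14.2 and 28.0 at time 0, 36.7 and 11.5 at 1 h, 133 and 127 at 16 h, 72.3 and 82.9 at day 1, 79.2 and 16.1 at day 3, and 45.1 and 29.1 at day 7. The 16 h and day 1 libraries lay above all 3 of time 0, and the others overlapped them. The change at 16 h was 2.05 (SE 0.60, limma adjusted p = 0.119) and reached an adjusted p of 0.0376 without time 0 replicate 1.

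In monocytes the 2 beta chains stood highest at 16 h and lowest at day 7. Csf2rb2 was 67.9 and 70.4 at 16 h, 38.9 and 48.3 at day 1, 32.5 and 34.8 at day 3, and 10.2 and 9.75 at day 7. Csf2rb was 148 and 178 at 16 h, 66.0 and 94.8 at day 1, 63.7 and 61.0 at day 3, and 33.1 and 40.5 at day 7. For both genes, every late library lay below every acute one, as for Csf2ra. Both also had the 4 time points in the same order with no overlap between their libraries. The share of all genes with such orders was not counted. Late against acute, neither passed the threshold (limma adjusted p = 0.445 for Csf2rb and 0.495 for Csf2rb2). At day 7 against 16 h, a contrast chosen after the values were seen, Csf2rb2 changed by -2.68 (SE 0.84, limma adjusted p = 0.228) and Csf2rb by -2.12 (SE 0.65, adjusted p = 0.220), short of the threshold in the fit of all in vivo groups. In a fit of the monocytes alone the adjusted p was 0.0011 for Csf2rb2 and 0.0035 for Csf2rb, with the same changes. Across the alternatives, that fit among them, 15 to 614 of 8218 genes were called, against 49 in the fit of all in vivo groups. Over the same libraries the microglia markers summed to 0.0544 and 0.0262% at 16 h, 0.0678 and 0.0967% at day 1, 0.115 and 0.167% at day 3, and 0.250 and 0.357% at day 7. The oligodendrocyte markers summed to 0.00149 and 0.00622% at 16 h and 0.0208 and 0.0126% at day 7, and the part of such cells in the monocyte values was not tested. Between cell types the beta chains did not differ past the threshold: for Csf2rb2, monocytes minus microglia was 0.93 in the acute phase (95% interval -0.28 to 2.14) and 1.26 in the late phase (0.05 to 2.47), with limma adjusted p of 0.569 and 0.287.

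Csf2rb and Csf2rb2 are closely related neighbours on chromosome 15, so reads from the stretches they share cannot be assigned to either with certainty. In the reference transcripts, 18.4% of the 50-base words of Csf2rb also occurred in Csf2rb2 and 19.0% the other way round, but 0% within the last 1000 bases of either. Read estimates of Csf2rb and Csf2rb2 were whole in all 21 in vivo libraries, whereas those of Csf3r held fractions in 17 of 21 and those of Csf2ra in 5 of 21. The sources used here do not say how reads were divided.

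Csf3r, the G-CSF receptor, was lower in monocytes than in microglia at every time both were measured. In monocytes it was 14.7 and 10.8 at 16 h, 2.75 and 6.16 at day 1, 4.94 and 4.54 at day 3, and 6.37 and 9.38 at day 7. In microglia it was 39.3, 31.1 and 98.9 at time 0, 60.0 and 31.4 at 1 h, 96.9 and 73.3 at 16 h, 132 and 107 at day 1, 43.0 and 92.4 at day 3, and 60.2 and 35.3 at day 7. The highest of the 8 monocyte libraries lay below the lowest of the 13 microglia libraries. The difference, monocytes minus microglia, was -3.59 in the acute phase (SE 0.47, limma adjusted p = 8.61e-06) and -2.95 in the late phase (SE 0.47, adjusted p = 0.000262), and both calls were kept in each of 9 alternatives and 8 fits without 1 library. No microglia time point differed from time 0 past the threshold, the largest change being 1.25 at day 1 (SE 0.61, adjusted p = 0.397).

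Neutrophil markers moved with Csf3r between the cell types. S100a8 was at 21.2 to 147 in monocytes and 1246 to 7072 in microglia, and Cxcr2, a chemokine receptor of neutrophils, at 0.368 to 7.50 in monocytes and 55.0 to 256 in microglia. Over the 10 in vivo group means, Cxcr2 was the gene most like Csf3r among 1220 compared (Pearson r = 0.97, a description with no test), ahead of G0s2 and Sh2d3c (0.96 each). The 10 means fall into a monocyte and a microglia set, which these coefficients mostly contrast. Within microglia, Cxcr2 had group means of 121 (time 0), 74.9 (1 h), 134 (16 h), 245 (day 1), 96.6 (day 3) and 65.1 (day 7), beside Csf3r means of 56.4, 45.7, 85.1, 119.5, 67.7 and 47.7 at the same times. Both were highest at day 1 and next highest at 16 h. The summed neutrophil share had another order: the 2 day 1 libraries had the highest Csf3r at neutrophil shares of 7.83 and 10.6%, and the 2 libraries at 1 h had 60.0 and 31.4 at shares of 22.8 and 21.1%. The part of neutrophil RNA in the difference between the cell types was not tested.

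**Figure D2:**
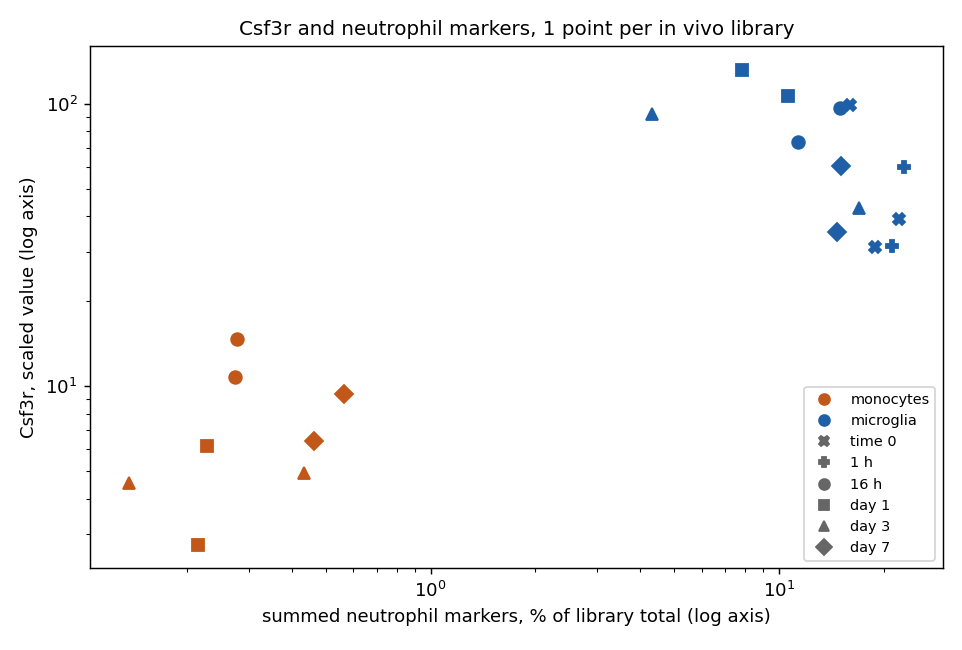
Csf3r (scaled value, log axis) against the summed share of 12 neutrophil markers in the library total (%, log axis), with 1 point for each of 8 monocyte libraries (orange) and 13 microglia libraries (blue) and symbols for time. Monocytes lie at shares of 0.136 to 0.566% and Csf3r of 2.75 to 14.7, and microglia at 4.33 to 22.8% and 31.1 to 132.

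Counted over the 6 measured members, microglia against time 0 called 0 at 1 h (0.073% of all genes were called), 1 at 16 h (0.694%) and 2 at day 1 (0.913%). Day 3 called 0 (0%) and day 7 called 0 (0.438%). At day 3 limma called 0 of 8218 genes, with 1176 at an unadjusted p under 0.05. The median member change against time 0 was -0.22 (1 h), 1.40 (16 h) and 1.28 (day 1). It was 0.75 for day 3 and 0.65 for day 7. Over all genes the median was 0.06 for 16 h and 0.00 for the other times. Each microglia library had 20.1 to 54.2% of genes listed at 1. Genes listed at 1 throughout change by 0, so the all-gene median is not a fair background for the members. The members did not share 1 shift: day 1 changes ran from 0.12 (Csf1r) and 0.15 (Csf2ra) to 5.30 (Csf1). Late against acute called 0 members in monocytes (0.84%) and 0 in microglia (1.28%), and monocytes at day 7 against 16 h called 0 (0.596%). Monocytes against microglia called 2, Csf1 and Csf3r, in the acute phase (2.92%) and the same 2 in the late phase (2.59%), all lower in monocytes. The difference between these phases called 0 members (0.0122%).

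**Figure D3:**
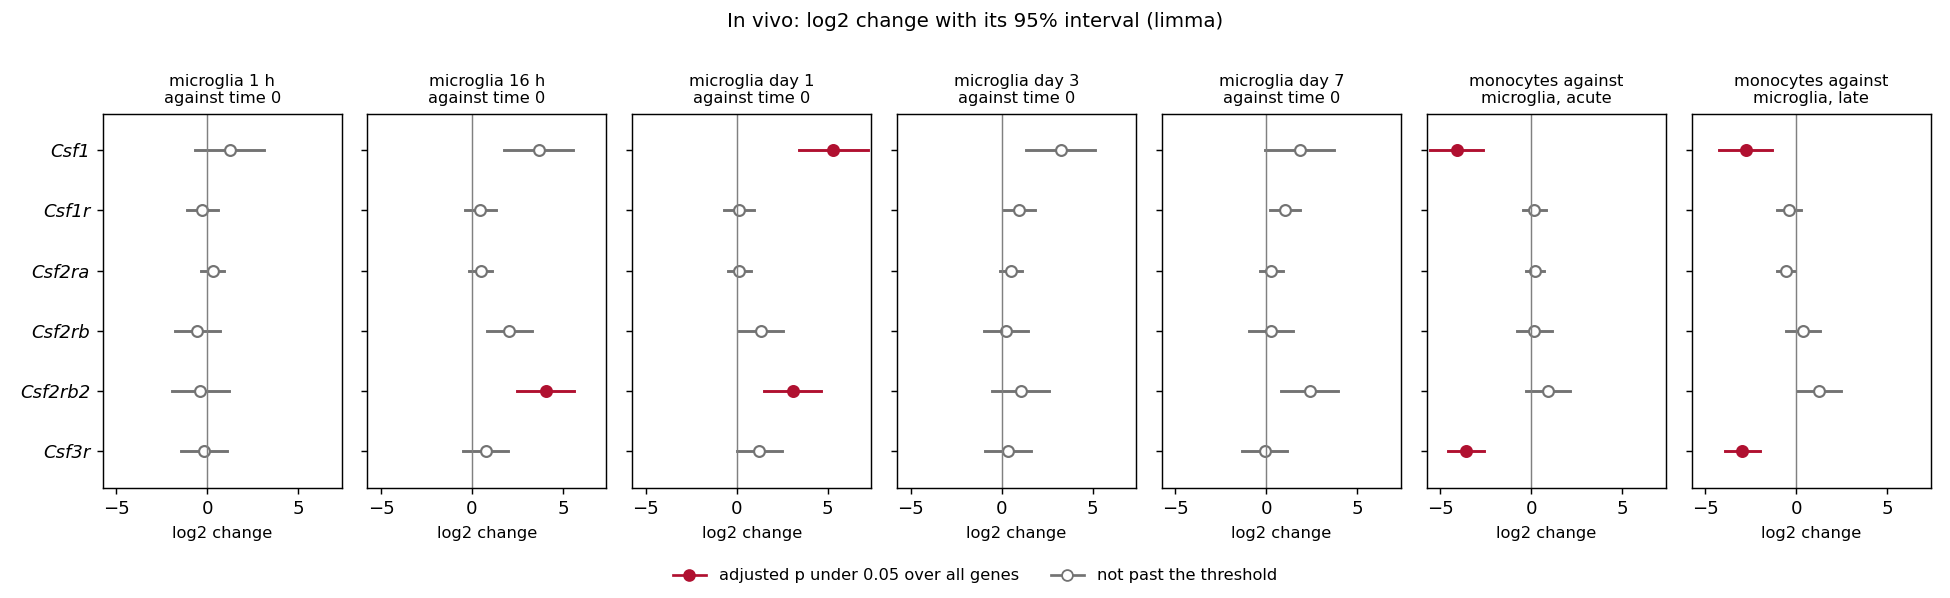
Log2 change (on the log2(value + 1) scale) of the 6 genes with its 95% interval from limma, for microglia at 5 times against time 0 and for monocytes against microglia in the acute (16 h and day 1) and late (day 3 and day 7) phases. Filled red points passed an adjusted p of 0.05 over all genes: Csf2rb2 at 16 h and day 1, Csf1 at day 1, and Csf1 and Csf3r in both comparisons of the cell types.

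Of 54 genes listed around these receptors, 42 were measured in vivo: other receptors, signal carriers, brakes, targets and survival genes, and transcription factors of myeloid receptor genes. In microglia at day 1, 3 of the 42 rose and 0 fell, where 0.913% of all genes were called. They were Cebpb, a transcription factor of myeloid genes (632 ± 8.82, n = 2, against 205 ± 78.0 at time 0, n = 3, SD, limma adjusted p = 0.000826), the kinase gene Pim1 (276 ± 68.9 against 80.2 ± 56.0, adjusted p = 0.0128) and Socs1, a brake on cytokine signalling (14.1 ± 3.65, against 3 libraries listed at 1, adjusted p = 0.0497). Socs1 had no read at time 0, where 1 read was worth 2.83 to 4.67. Single genes of this list were not followed through the alternatives. At 1 h, 16 h, day 3 and day 7 none of the 42 was called (0.073%, 0.694%, 0% and 0.438% of all genes). Late against acute, where 1.28% of all genes were called, microglia had 0 higher and 4 lower: Socs3, Bcl2l1, Ets2 and Cebpb. Cebpb was at 217 ± 26.5 late and 488 ± 169 acute (n = 4 each, SD).

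Monocytes, late against acute, had 0 higher and 5 lower of the 42, where 0.84% of all genes were called. Of these, 3 were brakes that cytokine receptors induce through STAT proteins. Cish fell to 3.49 ± 3.37 late, against 42.2 ± 22.1 acute (n = 4 each, SD, limma adjusted p = 0.0305). Socs2 was 1.94 ± 1.30 late and 17.1 ± 5.39 acute (adjusted p = 0.0390), and Socs3 was 33.1 ± 6.06 late and 164 ± 69.9 acute (adjusted p = 0.0442). Egr2 and Cebpb were the others, with Cebpb at 244 ± 24.4 late and 479 ± 55.3 acute. Between cell types, Sdc1, which encodes a syndecan that binds IL34, was higher in monocytes in the acute phase (31.2 ± 6.53, against 2.07 ± 1.25 in microglia, n = 4 each, SD, adjusted p = 0.000600), and Flt3, a cytokine receptor of progenitors and dendritic cells, in the late phase (11.8 ± 5.82 against 2.07 ± 2.14, adjusted p = 0.0374). They were the only genes of the 42 called between the cell types in those phases, where 2.92% (acute) and 2.59% (late) of all genes were called.

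Before TGFb1 the cultured macrophages and microglia differed in 5 of the 6 members, where 51.1% of all genes differed. Macrophages were higher in Csf2rb, Csf2rb2, Csf2ra and Csf1r and lower in Csf3r. Csf2rb was 626 and 614 in macrophages, against 192 and 147 in microglia (log2 1.88, SE 0.11, limma adjusted p = 4.1e-11). Csf2rb2 was 572 and 488 in macrophages and 197 and 218 in microglia (1.35, SE 0.12, adjusted p = 1.41e-08), and Csf2ra was 343 and 359.8 in macrophages and 143 in both microglia libraries (1.29, SE 0.10, adjusted p = 1.88e-09). No macrophage library of any time overlapped a microglia library in these 3 genes. The share of all genes that separate in this way was not counted, so the separation is not a trait particular to them. Csf1r was 2803 and 2521 in macrophages and 2011 and 1703 in microglia (0.52, SE 0.08, adjusted p = 8.83e-06). That call ended with quantile normalization, which gave 0.08 (adjusted p = 0.381). The median of all genes in this comparison was -0.13, 0.03 with quantile normalization and -0.21 with libraries scaled to the same total. Csf1 was 70.0 and 29.4 in macrophages and 22.5 and 28.8 in microglia (0.81, SE 0.34, adjusted p = 0.0523). Csf1 was called there with quantile normalization (1.07, adjusted p = 0.0107), with a pseudocount of 4 (adjusted p = 0.0447) and without macrophage replicate 2 (1.42, adjusted p = 0.0021).

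Csf3r ran the other way. At 0 h it was 23.5 and 12.9 in macrophages and 95.4 and 102 in microglia (log2 -2.44, SE 0.59, limma adjusted p = 0.00192), and over all times it was 0.585 to 25.5 in macrophages and 66.1 to 102 in microglia. The groups did not overlap at any time, and the share of all genes that separate in this way was not counted. The 9 neutrophil markers measured in culture summed to 0.0494 to 0.0684% of the total in macrophages and 0.0341 to 0.0397% in microglia. S100a9 was listed at 1 in 11 of 12 microglia libraries. The 6 astrocyte markers measured summed to at most 0.00242% in macrophages and at most 0.0120% in microglia. In culture the reads of Csf3r were fractional in 22 of 23 libraries and those of Csf2ra in 20 of 23, and the sources used here do not say how such reads were assigned.

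Under TGFb1, the 2 beta chain genes stood highest in macrophages at 3 h. Csf2rb was 626 and 614 at 0 h, 827 and 843 at 1 h, 1226 and 1066 at 3 h, 967 at 6 h, 457 and 492 at 16 h, and 531 and 569.9 at 20 h. Its libraries at 1, 3 and 6 h all lay above those of 0 h, and those at 16 and 20 h below. Csf2rb rose at 1 h (0.43, SE 0.11, limma adjusted p = 0.0465) and at 3 and 6 h together (0.76, SE 0.11, adjusted p = 4.81e-05). The 1 h call was lost in each of 4 fits without 1 library (adjusted p 0.127 to 0.173), and the 3 and 6 h call was kept in each of 4. At 16 and 20 h the change against 0 h was -0.28 (SE 0.10, adjusted p = 0.0719).

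Csf2rb2 in macrophages was 572 and 488 at 0 h, 595 and 620.2 at 1 h, 796 and 730.5 at 3 h, 677 at 6 h, 423 and 409.6 at 16 h, and 391 and 492 at 20 h. The 3 and 6 h libraries lay above those of 0 h, and the 20 h libraries reached into the range of 0 h. It rose at 3 and 6 h together (0.44, SE 0.11, limma adjusted p = 0.0123), a call lost without 0 h replicate 2 (0.33, adjusted p = 0.154), with quantile normalization and in a fit of the macrophages alone. At 16 and 20 h against 3 and 6 h, a contrast chosen after the values were seen, Csf2rb fell (-1.04, SE 0.09, adjusted p = 7.77e-08) and Csf2rb2 fell (-0.75, SE 0.10, adjusted p = 1.1e-05).

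In cultured microglia neither beta chain gene passed the threshold. Csf2rb was 192 and 147 at 0 h, 179 and 188 at 1 h, 159.9 and 155 at 3 h, 154 and 158 at 6 h, 132 and 120.2 at 16 h, and 156 and 128 at 20 h. Csf2rb2 lay between 197 and 276 over all 12 microglia libraries. The later Csf2rb libraries were the lower ones, yet 0 h overlapped them, and the change at 16 and 20 h was -0.33 (SE 0.10, limma adjusted p = 0.0883). At that time the change in macrophages minus that in microglia was 0.05 for Csf2rb (95% interval -0.24 to 0.34, adjusted p = 0.907) and -0.44 for Csf2rb2 (-0.75 to -0.13, adjusted p = 0.116). The difference at 3 and 6 h was not tested.

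Csf1r rose late in macrophages. Its values there were 2803 and 2521 at 0 h, 2968 and 2752 at 1 h, 3231 and 2825 at 3 h, 2829.8 at 6 h, 2953 and 3205 at 16 h, and 3639 and 3659.8 at 20 h. All 4 libraries of 16 and 20 h lay above both of 0 h (0.33, SE 0.07, limma adjusted p = 0.00146). The call was lost without 0 h replicate 2 (0.26, adjusted p = 0.0549). In microglia Csf1r was 2011 and 1703 at 0 h, 1822 and 1917 at 1 h, 1727 and 1803 at 3 h, 1889 and 1895 at 6 h, 1783 and 1602 at 16 h, and 1619.6 and 1549 at 20 h, a change of -0.18 at 16 and 20 h (SE 0.07, adjusted p = 0.207). The macrophage change minus the microglia change was 0.51 (SE 0.09, adjusted p = 0.00183), a difference kept in each of 12 fits without 1 library.

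Csf2ra, of the GM-CSF receptor, differed between the cultures in its change. Macrophages had 343 and 359.8 at 0 h, 419.9 and 389 at 1 h, 425 and 379.7 at 3 h, 353 at 6 h, 299 and 332 at 16 h, and 286 and 306 at 20 h. Microglia had 143 in both libraries at 0 h, 173 and 164 at 1 h, 166 and 151 at 3 h, 171 and 172 at 6 h, 166 and 162 at 16 h, and 164 and 194 at 20 h. The 4 macrophage libraries of 16 and 20 h lay below those of 0 h (-0.20, SE 0.09, limma adjusted p = 0.160), and the 4 microglia libraries lay above theirs (0.26, SE 0.09, adjusted p = 0.158). Neither change passed the threshold alone, and their difference did (-0.46, SE 0.13, adjusted p = 0.0419), though it was kept in 3 of 12 fits without 1 library.

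Csf1 and Csf3r had few reads in the macrophage cultures (20 to 75 and 0.5 to 21.5 per library) and no call against 0 h. Csf1 in macrophages was 64.2 and 49.2 at 1 h, 77.9 and 70.2 at 3 h, 41.5 at 6 h, 27.4 and 38.2 at 16 h, and 39.8 and 41.3 at 20 h, all but 3 h and the lower 16 h library within the spread at 0 h. In microglia Csf1 was 14.7 to 42.2, with both libraries of 3, 16 and 20 h above both of 0 h (0.62 at 16 and 20 h, SE 0.29, limma adjusted p = 0.424). Csf3r in macrophages was 12.2 and 17.9 at 1 h, 10.9 and 0.585 at 3 h, 6.67 at 6 h, 6.85 and 17.7 at 16 h, and 25.5 and 13.8 at 20 h. The change at 3 and 6 h was -1.67 (SE 0.56, adjusted p = 0.0527), with all 3 libraries below both of 0 h. It was called under 6 of 10 alternatives (adjusted p 0.0264 to 0.0471) and in 1 of 4 fits without 1 library.

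**Figure D4:**
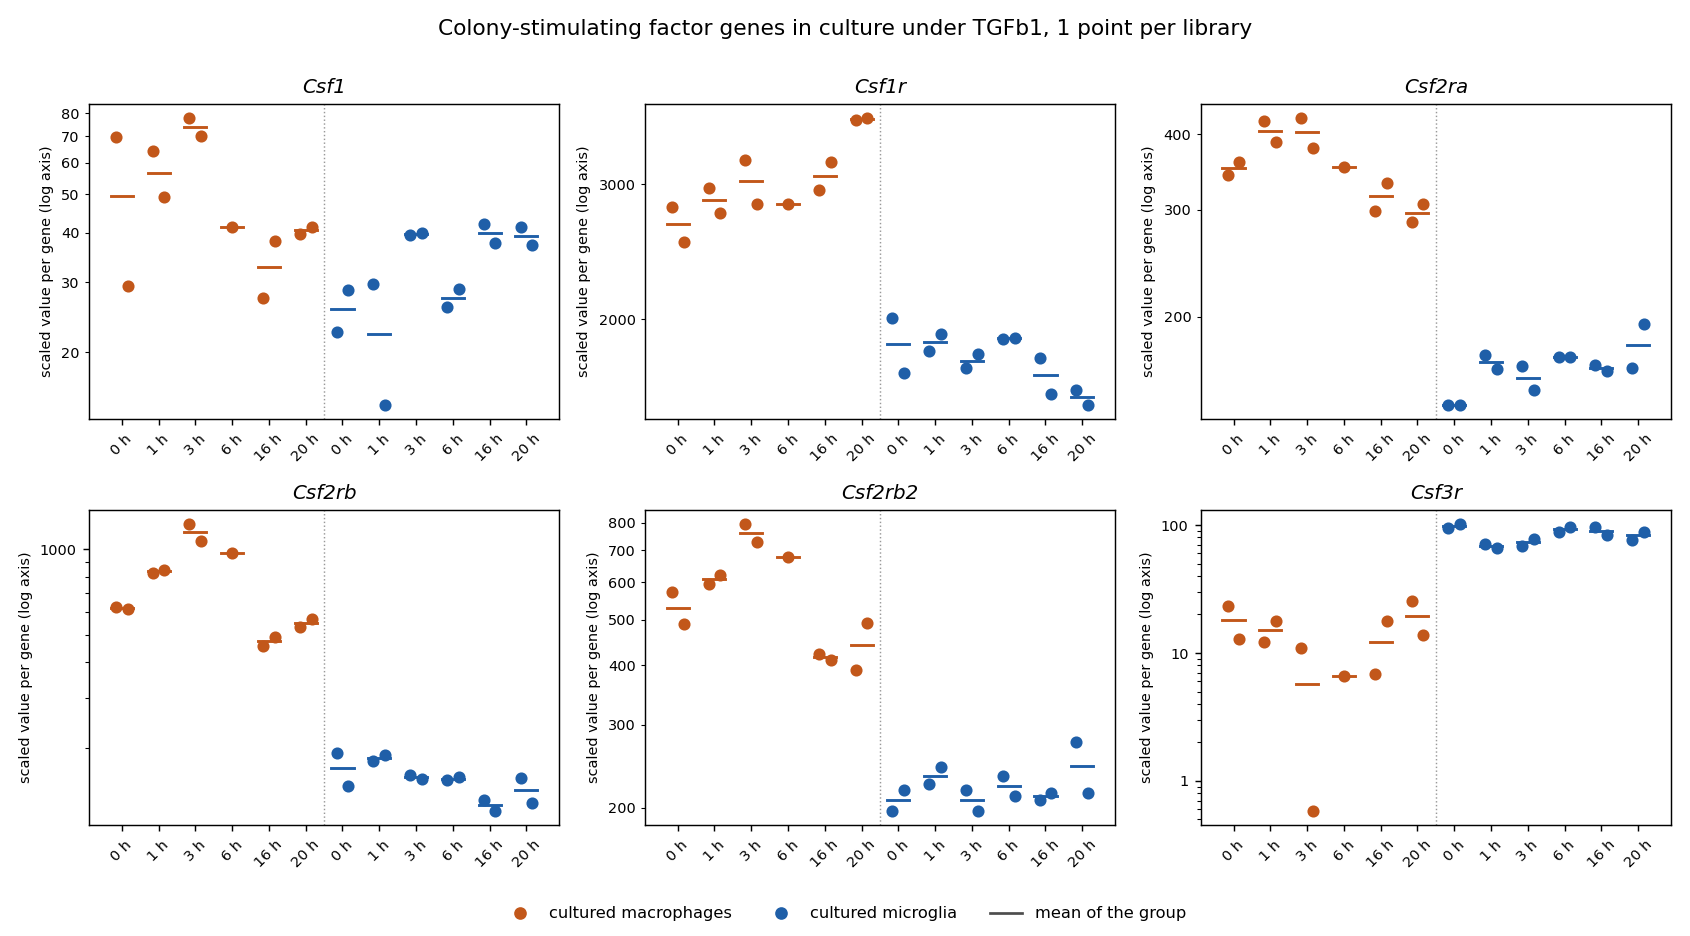
Scaled value per gene (log axis) of the 6 measured genes in each culture library from 0 to 20 h under TGFb1, with 11 macrophage libraries in orange at the left of each panel and 12 microglia libraries in blue at the right. Points are libraries and bars are group means. Csf2rb in macrophages reaches 1066 and 1226 at 3 h, and Csf3r stays at or below 25.5 in macrophages and at or above 66.1 in microglia.

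Over the 6 members, macrophages under TGFb1 called 1 at 1 h (3.01% of all genes were called), 2 at 3 and 6 h (13.2%) and 1 at 16 and 20 h (12.3%), all higher. Microglia called 0 at 1 h (0.34%), 0 at 3 and 6 h (1.16%) and 0 at 16 and 20 h (3.01%), where limma had 699, 980 and 1436 of 12335 genes at an unadjusted p under 0.05. The difference between the cultures at 16 and 20 h called 2 (4.38%). Macrophages at 16 and 20 h against 3 and 6 h called 5 (20.6%): Csf1r and Csf3r were higher, and Csf2ra, Csf2rb and Csf2rb2 lower. Csf3r in that contrast (1.42, SE 0.47, limma adjusted p = 0.0366) had overlapping groups and was kept in 3 of 6 fits without 1 library. Csf1r (0.20, SE 0.06, adjusted p = 0.0236) also had overlapping groups, and its call was lost without 3 h replicate 2 and without 16 h replicate 2 (adjusted p = 0.0772 in the last), and also with no trend in the variance (0.186) and with macrophages fitted alone (0.136). Csf2ra (-0.30, SE 0.08, adjusted p = 0.0108) lost its call with libraries scaled to the same total (adjusted p = 0.0565). The same contrast in microglia called 0 (1.22%).

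**Figure D5:**
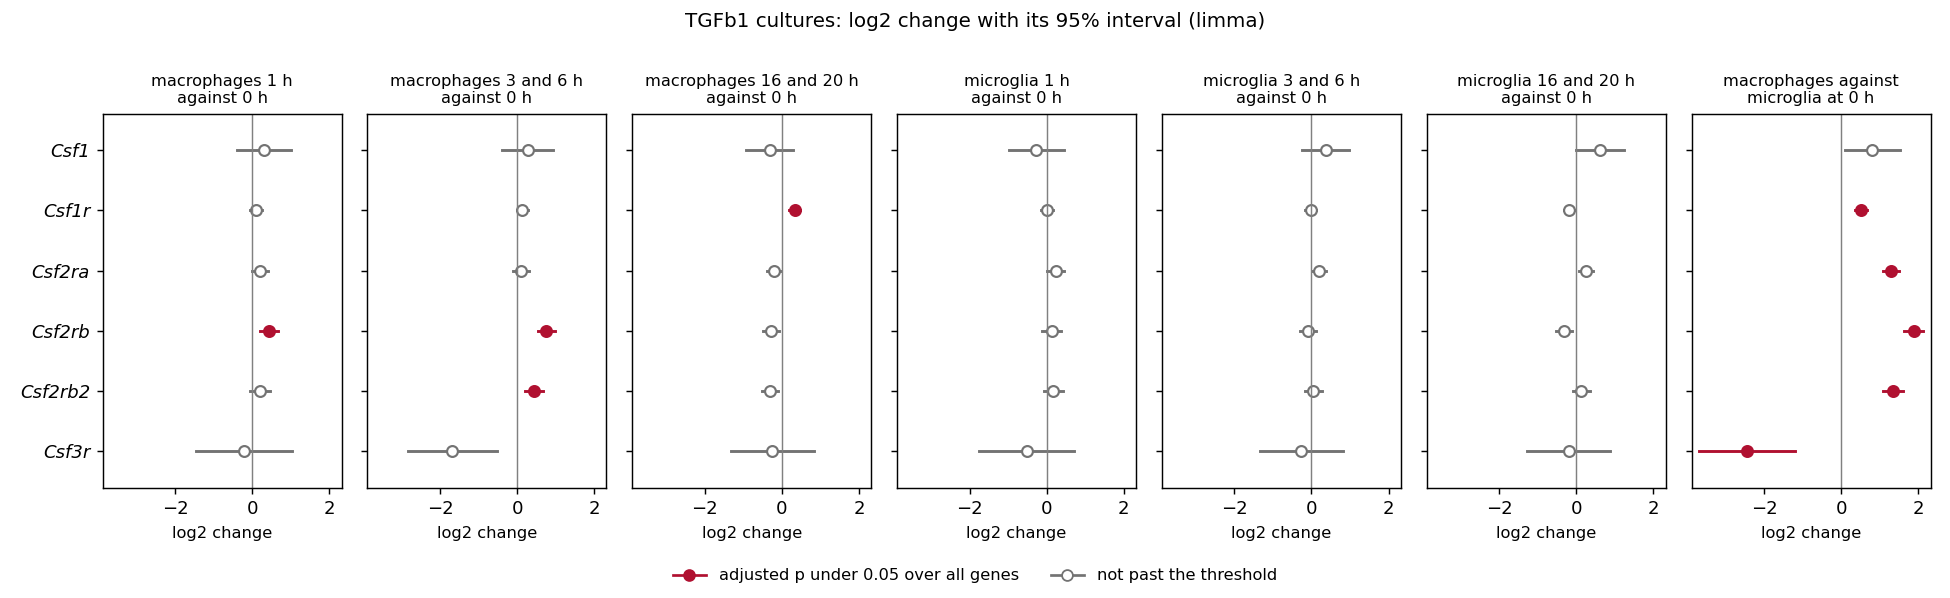
Log2 change (on the log2(value + 1) scale) of the 6 genes with its 95% interval from limma, for macrophages and microglia at 3 stages of TGFb1 treatment against 0 h and for macrophages against microglia at 0 h. Filled red points passed an adjusted p of 0.05 over all genes: Csf2rb at 1 h and at 3 and 6 h, Csf2rb2 at 3 and 6 h and Csf1r at 16 and 20 h in macrophages, and 5 genes between the cultures.

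Of the list around the receptors, 45 genes were measured in culture. At 1 h macrophages had 4 higher and 1 lower, where 3.01% of all genes were called. Cebpb rose to 1181 ± 1.53, against 379 ± 48.9 at 0 h (n = 2 each, SD, limma adjusted p = 1.23e-09), and Pim1, Ets2 and Socs3 rose, while the survival gene Mcl1 fell. At 3 and 6 h, 11 were higher and 6 lower, where 13.2% of all genes were called. The higher ones included Jak2, the kinase bound by the beta chain (134 ± 9.77, n = 3, against 56.2 ± 3.67, n = 2, adjusted p = 0.000165), Socs2, Myc, Ccnd1 and Sdc1 (399 ± 26.3 against 120 ± 8.26, adjusted p = 0.00116). The lower ones included Kitl, Kit and the PI3 kinase genes Pik3cd and Pik3r1. At 16 and 20 h, where 12.3% of all genes were called, 5 were higher and 6 lower, led by Cebpa, a myeloid transcription factor (768 ± 81.0, n = 4, against 310 ± 6.79, n = 2, adjusted p = 5.34e-13).

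Microglia had 2 of the 45 higher and 0 lower at 1 h, where 0.34% of all genes were called. Pim1 rose to 96.7 ± 6.68, against 24.8 ± 2.28 at 0 h (n = 2 each, SD, limma adjusted p = 9.49e-07), and Cebpb to 436 ± 38.6, against 258 ± 4.80 (adjusted p = 0.000544). At 3 and 6 h (1.16% of all genes), 2 were higher, Cebpa and the phosphatase gene Inpp5d, and the cyclin gene Ccnd1 was lower. At 16 and 20 h (3.01% of all genes), 4 were higher and 2 lower. They included Tyrobp, an adaptor that couples to CSF1R signalling (5347 ± 98.8, n = 4, against 4343 ± 140, n = 2, adjusted p = 3.11e-06). The gain of Cebpa at 16 and 20 h was larger in macrophages than in microglia by 1.02 (SE 0.07, adjusted p = 3.05e-08).

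Ranked by likeness over the 12 culture group means among 8775 genes, Csf2rb2 was nearest to Ccl7, Csf2rb and Slc27a1 (Pearson r = 0.99 each), and Csf2rb to Sdc1, Ccl2 and 2410001c21rik (0.99 each). Csf2ra was nearest to Slc27a1, Cyba and Slc17a1 (0.99 each), Csf1r to Psmb9 (0.99), Ccnb2 and Nusap1 (0.98 each), and Csf3r to Ranbp9, Plekha1 and Tnks2 (0.99 each). Csf1 was nearest to Osgin2 (0.87), C030046i01rik and Myeov2 (0.85 each). The points fall into a macrophage and a microglia set, which these coefficients mostly contrast. In vivo, over 10 group means, Csf1 was nearest to Midn (0.91), Ccnl2 (0.87) and Slfn4 (0.85), and Csf1r to Cdipt, Itm2c and Cnpy3 (0.90 each). Csf2ra was nearest to Plaur (0.89), Phlda1 (0.87) and Degs1 (0.83), Csf2rb to Rnf149 (0.96), Smox and Fth1 (0.95 each), and Csf2rb2 to Il4ra (0.94), Fcgr2b and Fth1 (0.92 each). Likeness is given as a description.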

How the data were processed

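RNA from 44 mouse libraries was analysed in 2 tables. TopHat and mm9 are named in the submitters' processing notes. The sources used here give no version, counter, annotation, strand setting or scaling method. Both tables hold a coverage signal per gene that the authors deposited in scaled form. Of the values of up to 20 reads, 86.5 to 90.3% per library were whole multiples of 1 step within a tolerance of 0.05 steps. That step was taken as 1 read (0.170 to 0.850 in monocytes, 0.853 to 4.67 in microglia, 0.725 to 1.48 in culture), and a total divided by it as the depth. Lower depth makes the microglia values the least precise. Because some values were fractions of a read, no count model was used. A row with no gene name (at most 0.0165% of a library) was left out.

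The log2(value + 1) of each gene entered limma 3.58.1 (R 4.3.3), where every group had its own coefficient, the spread was estimated over a whole table, and the trend and robust options were on. Benjamini-Hochberg adjustment ran over every gene of a table, with calls at an adjusted p under 0.05. The fit was also run on simulated reads with known changes, where each unchanged gene had the same mean in every group. That setting is simpler than these libraries and does not vouch for single calls here. Over all pairs of groups, same-numbered libraries shared little deviation from their group means in vivo or in macrophages (median r = 0.012 and -0.0059). Most in vivo pairs joined different times, so pairing of monocytes and microglia within a time was not tested. Titles of cultured microglia carry no replicate letter, whereas the headers of their values carry a and b. Pairing by those letters was not checked. Alternatives changed the pseudocount, filter, scaling, variance model, libraries and covariates.

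The members, the lists and the alternatives were chosen with earlier results of these data known. All members are named, with every called gene counted in a pathway list of 54 genes, and the 3 genes most like each member among those with a mean of at least 20.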

Additional observations from a re-analysis of the deposited data

Results flagged for a closer look

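In the cultures, 2 members changed differently in macrophages and microglia at 16 and 20 h of TGFb1, by a test of the difference of the changes in limma over all genes. For Csf1r the macrophage change minus the microglia change was 0.51 (SE 0.09, limma adjusted p = 0.00183), with the 4 later macrophage libraries all above 0 h. The Csf1r call was kept in 7 of 8 alternatives and lost without the trend in the variance. For Csf2ra it was -0.46 (SE 0.13, adjusted p = 0.0419), with the 4 later macrophage libraries below 0 h and the 4 later microglia libraries above. The Csf2ra call was kept in 4 of 8 alternatives. It was lost with quantile normalization, total scaling, no trend or array weights, and without most single libraries (changes of -0.52 to -0.40).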

How the results depend on the processing

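No called change took the opposite sign under any alternative run. The changes of sign listed last were short of the threshold in both fits. At 16 h in microglia, 1 member was called, but 2 with a pseudocount of 4, 2 among genes with a mean of at least 5 and 2 with the replicate block, and 0 with microglia fitted by themselves, 0 with a neutrophil covariate and 0 without the 3 erythroid-rich libraries (0 to 2 without 1 library). At day 1 it was 2, but 1 with values listed at 1 set to 0, 1 with array weights, 1 in the microglia alone and 1 with the replicate block, and 0 with the covariate or without the erythroid-rich libraries (1 to 2 without 1 library). Day 3, and late against acute in microglia, had 0 (0 to 1 and 0 to 2 without 1 library). Monocytes late against acute, and day 7 against 16 h, had 0, but 3 each with array weights and 3 each in the monocytes alone. Late monocytes against microglia had 2, but 1 with values of 1 set to 0, without the trend, with array weights or without the erythroid-rich libraries (1 to 2 without 1 library). Cultured macrophages at 1 h had 1, but 0 with quantile normalization, total scaling, no trend, array weights, the macrophages alone or without any 1 library. At 3 and 6 h they had 2, but 1 with quantile normalization, no trend or macrophages alone, and 3 (with Csf3r) with a pseudocount of 4, a mean of at least 5, total scaling, array weights, the replicate block or 3 h alone (1 to 3 without 1 library), and at 16 and 20 h 1, but 0 without the trend or alone (0 to 2). Against 3 and 6 h they had 5, but 3 without the trend or alone (3 to 5). Cultured microglia at 16 and 20 h had 0, but 1 with quantile normalization, total scaling or array weights (0 to 1). Cultured macrophages against microglia at 0 h had 5, but 6 (with Csf1) with a pseudocount of 4 or the replicate block (5 to 6 without 1 library). The culture difference had 2, but 1 with quantile normalization, total scaling or array weights and 0 without the trend (1 to 3). Over all pairs of groups, same-numbered deviations correlated at -0.16 to 0.19 in vivo, with 5 of 45 pairs over 0.1. Those of cultured macrophages correlated at -0.030 to 0.029, with 0 of 10. Most in vivo pairs joined different times. Monocytes and microglia of the same time were not checked separately, so pairing within a time was not tested. In culture the replicate block covered the macrophages only. Alternatives on erythroid-rich libraries and the contrasts of later with earlier times were chosen after seeing the data. The cause of these changes was not tested. Microglia depth in vivo limits low genes: 1 read was worth up to 4.67, so Csf1 and Csf2rb2 at time 0 rest on 2 reads and 1 read.

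Over all genes, the calls across alternatives and leave-outs ran at 2 to 13 beside 6 for microglia 1 h against time 0, 0 to 75 beside 57 for microglia 16 h against time 0, 1 to 116 beside 75 for microglia day 1 against time 0, 0 to 525 beside 0 for microglia day 3 against time 0, 0 to 352 beside 36 for microglia day 7 against time 0, 13 to 311 beside 105 for microglia late (day 3 and 7) against acute (16 h and day 1), 24 to 711 beside 69 for monocytes late (day 3 and 7) against acute (16 h and day 1), 104 to 781 beside 240 for monocytes against microglia, acute (16 h and day 1), 85 to 392 beside 213 for monocytes against microglia, late (day 3 and 7), 1 to 5 beside 1 for late minus acute change, monocytes minus microglia. They ran at 13 to 614 beside 49 for monocytes day 7 against 16 h, 93 to 413 beside 371 for cultured macrophages 1 h TGFb1 against 0 h, 720 to 1690 beside 1633 for cultured macrophages 3 and 6 h TGFb1 against 0 h, 712 to 1649 beside 1513 for cultured macrophages 16 and 20 h TGFb1 against 0 h, 15 to 82 beside 42 for cultured microglia 1 h TGFb1 against 0 h, 54 to 287 beside 143 for cultured microglia 3 and 6 h TGFb1 against 0 h, 166 to 691 beside 371 for cultured microglia 16 and 20 h TGFb1 against 0 h, 309 to 575 beside 540 for change at 16 and 20 h TGFb1, macrophages minus microglia, 1304 to 2670 beside 2546 for cultured macrophages 16 and 20 h against 3 and 6 h TGFb1, 89 to 358 beside 150 for cultured microglia 16 and 20 h against 3 and 6 h TGFb1.

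Of 2034 recomputed log2 changes of single members, 64 took the other sign, over 36 results whose size was at most 1.05. For microglia 1 h against time 0, Csf1r had 0.0090 with the neutrophil share and -0.49 to 0.049 without 1 library, Csf3r had 0.066 with the neutrophil share, 0.31 with the replicate block and -0.64 to 0.31 without 1 library and Csf2rb had -1.34 to 0.26 without 1 library. For microglia 16 h against time 0, Csf1r had -0.076 with the neutrophil share, -0.12 without the erythroid-rich libraries and -0.12 to 1.04 without 1 library. For microglia day 1 against time 0, Csf1r had -0.78 with the neutrophil share, -0.12 with the replicate block and -0.12 to 0.43 without 1 library and Csf2ra had -0.18 with the neutrophil share. For microglia day 3 against time 0, Csf3r had -0.38 with the neutrophil share and -0.20 to 0.89 without 1 library, Csf2rb had -0.88 to 1.35 without 1 library and Csf2rb2 had -0.31 to 2.42 without 1 library. For microglia day 7 against time 0, Csf3r had 0.0023 with array weights, 0.39 with the replicate block and -0.48 to 0.39 without 1 library, Csf2ra had -0.19 to 0.75 without 1 library and Csf2rb had -0.28 to 0.83 without 1 library. For monocytes day 7 against 16 h, Csf1 had -0.0059 with quantile normalization and -0.76 to 1.01 without 1 library and Csf1r had -0.25 to 0.54 without 1 library. For cultured macrophages 1 h TGFb1 against 0 h, Csf1r had -0.0047 with quantile normalization, Csf1 had -0.31 to 0.91 without 1 library and Csf3r had -0.63 to 0.19 without 1 library. For cultured microglia 1 h TGFb1 against 0 h, Csf1r had -0.023 with quantile normalization, -0.0050 with total scaling and -0.11 to 0.13 without 1 library, Csf1 had -0.75 to 0.22 without 1 library and Csf2rb had -0.067 to 0.32 without 1 library. For change at 16 and 20 h TGFb1, macrophages minus microglia, Csf3r had 0.029 with total scaling and -0.47 to 0.36 without 1 library and Csf2rb had -0.15 to 0.24 without 1 library. For microglia late (day 3 and 7) against acute (16 h and day 1), Csf2ra had -0.15 to 0.32 without 1 library. For monocytes late (day 3 and 7) against acute (16 h and day 1), Csf1r had -0.055 to 0.34 without 1 library. For monocytes against microglia, acute (16 h and day 1), Csf1r had -0.11 to 0.46 without 1 library. For monocytes against microglia, late (day 3 and 7), Csf2rb had -0.16 to 0.95 without 1 library. For late minus acute, monocytes minus microglia, Csf2rb had -0.34 to 0.78 without 1 library and Csf2rb2 had -0.36 to 1.01 without 1 library. For cultured macrophages 3 and 6 h TGFb1 against 0 h, Csf1 had -0.33 to 0.89 without 1 library. For cultured macrophages 16 and 20 h TGFb1 against 0 h, Csf1 had -0.93 to 0.29 without 1 library and Csf3r had -0.66 to 0.16 without 1 library. For cultured microglia 3 and 6 h TGFb1 against 0 h, Csf1r had -0.14 to 0.10 without 1 library, Csf2rb had -0.29 to 0.095 without 1 library and Csf2rb2 had -0.020 to 0.12 without 1 library. For cultured microglia 16 and 20 h against 3 and 6 h TGFb1, Csf2ra had -0.0035 to 0.12 without 1 library and Csf2rb2 had -0.011 to 0.17 without 1 library.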
